A study of Homo sapiens with 6 samples.

Results

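The human mitochondrial genome carries 37 genes, and all 37 were found among the 60609 gene identifiers of each library by symbols that begin with MT- and by their place on the mitochondrial chromosome. They encode 13 mRNAs, 2 rRNAs and 22 tRNAs. The data are RNA sequencing of HEK293, a human embryonic kidney line transformed with adenovirus DNA, in 3 libraries labelled STAT5b knock-out and 3 libraries labelled wild type. STAT5B is a transcription factor activated by JAK kinases. Clones mutated on both STAT5B alleles had been obtained with CRISPR/Cas9, and the other cells have the genotype wild type. Titles of both groups carry the word Sham, and the culture protocol speaks of GS knockout clones. The labels explain neither, and no treatment is described. Both were kept in the same serum-containing medium. The labels do not say how many clones the knockout libraries came from, so differences between clones and loss of STAT5B cannot be told apart. The labels speak of triplicates without saying whether these were separate cultures, so the p-values rest on a spread between libraries that may be technical.

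Mitochondrial DNA is transcribed by a dedicated polymerase into long RNAs that run almost around the circle. Enzymes then cut out the tRNAs that lie between the other genes, and this frees the mRNAs and rRNAs. The mRNAs encode core subunits of respiratory complexes I, III and IV and of the ATP synthase (complex V), while all other subunits come from nuclear genes. The rRNAs build the mitochondrial ribosome that translates these mRNAs. Most of the mRNAs carry a short poly(A) tail, and MT-ND6 is known as the exception.

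The annotated ends of some mRNA genes are shown because several mRNAs reach a full stop codon only through the poly(A) tail. In the GENCODE 29 transcripts, 6 of the 13 mRNAs stop within their last codon and 7 carry a complete one. The last 30 bases of each annotated gene are given 5′ to 3′ on its strand (GRCh38), with the stop codon bases that are present in capitals. Whether the RNA itself runs beyond the annotated end was not examined. MT-ND1, which encodes a membrane subunit of complex I, ends at chrM:4233-4262 on the plus strand. MT-ND3, another complex I subunit, ends at chrM:10375-10404 on the plus strand. MT-CO1, the catalytic subunit of cytochrome c oxidase, ends at chrM:7416-7445 on the plus strand with a codon that mitochondria read as a stop. MT-ND5, a large complex I subunit, ends at chrM:14119-14148 on the plus strand. MT-ND6, also of complex I, is the only mRNA on the minus strand and ends at chrM:14149-14178, directly against the end of MT-ND5.
MT-ND1: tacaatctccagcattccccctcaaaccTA
MT-ND3: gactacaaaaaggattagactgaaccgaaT
MT-CO1: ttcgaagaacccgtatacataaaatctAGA
MT-ND5: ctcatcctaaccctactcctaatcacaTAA
MT-ND6: attgtaattgagattgctcgggggaatAGG

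Overlaps and copies are shown because they decide how reads can be assigned. MT-ATP8 and MT-ATP6, both subunits of the ATP synthase, share 46 bases at chrM:8527-8572 on the plus strand, printed with the first codon of MT-ATP6 and the stop codon of MT-ATP8 in capitals. MT-ND4L and MT-ND4 share 7 bases at chrM:10760-10766. Nuclear DNA holds old copies of mitochondrial sequence, and MTATP6P1 on chromosome 1 differs from MT-ATP6 at 10 of 681 positions (98.5% identity). The first difference is G19A, counted from 1 at the first base of MT-ATP6, and it is the base in capitals in the windows from chrM:8527-8586 and chr1:633696-633755, both on the plus strand.
MT-ATP8 and MT-ATP6 overlap: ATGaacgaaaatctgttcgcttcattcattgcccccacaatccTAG
MT-ATP6: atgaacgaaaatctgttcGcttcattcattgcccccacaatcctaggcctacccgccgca
MTATP6P1: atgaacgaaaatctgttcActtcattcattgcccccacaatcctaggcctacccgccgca

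The libraries held 17494958 to 21099813 estimated counts in the knockout and 17686407 to 20279181 in the wild type, with 22363 to 23110 genes above 0. STAT5B had 1111, 1287 and 1059 counts in the knockout libraries, against 1242, 1232 and 1410 in the wild-type libraries, and a count over a whole gene does not check a small mutation. The epithelial markers KRT8, KRT18 and EPCAM, the kidney markers PAX2, LHX1 and SIX2, the neuronal markers NEFL and NEFM and the mesenchymal markers VIM and CDH2 were detected in all 6 libraries. NEFM had 3136 to 4394 counts in the knockout, against 7440 to 8982 in the wild type. NEFL did not share this difference, with 1930 to 2349 counts in the knockout, against 1893 to 2155 in the wild type. The part of NEFM in the results below was not tested. The blood markers PTPRC and CD3E and the endothelial marker CDH5 had 0 counts in all 6, and PECAM1 had at most 1. In the comparison of knockout with wild type by edgeR's quasi-likelihood test, 23.4% of 15958 tested genes passed, 12.1% as higher and 11.4% as lower, at a Benjamini-Hochberg adjusted p under 0.05. All such adjusted p-values below cover all tested genes. The 2 rRNAs and 13 mRNAs passed the filter on low counts, and none of the 22 tRNAs did.

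The large mitochondrial rRNA, MT-RNR2, rose in the knockout, while none of the 13 mRNAs passed the test. MT-RNR2 (ENSG00000210082, chrM:1671-3229, plus strand) had 2622, 3070 and 1967 CPM (counts per 1000000 of the scaled library size) in the knockout, against 1316, 1520 and 1393 CPM in the wild type. The lowest knockout library lay above the highest wild-type library, and groups did not overlap in this direction for 19.9% of all tested genes. The means were 2553 ± 554 CPM in the knockout and 1410 ± 103 CPM in the wild type (SD, n = 3 each). The log2 fold change was 0.86 (SE 0.11, 95% interval 0.62 to 1.09) with an edgeR adjusted p of 8.88e-05. Of all tested genes, 136 had a higher log2 fold change. The call of MT-RNR2 held in all 19 alternative settings, with log2 fold changes from 0.70 without knockout replicate 2 to 1.01 without knockout replicate 3.

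The small rRNA, MT-RNR1 (ENSG00000211459, chrM:648-1601, plus strand), which lies upstream of MT-RNR2 on the same primary transcript, did not pass. It had 1102, 1115 and 871 CPM in the knockout, against 786, 1022 and 809 CPM in the wild type. The groups overlapped, since knockout replicate 3 lay below wild-type replicate 2. Its log2 fold change was 0.24 (SE 0.094, 95% interval 0.037 to 0.44, edgeR adjusted p = 0.0837), and it passed without knockout replicate 3 (0.34, adjusted p = 0.00621) or without wild-type replicate 2 (0.37, adjusted p = 0.0102). Of all genes, 11% and 8.47% passed as higher in these comparisons.

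**Figure D1:**
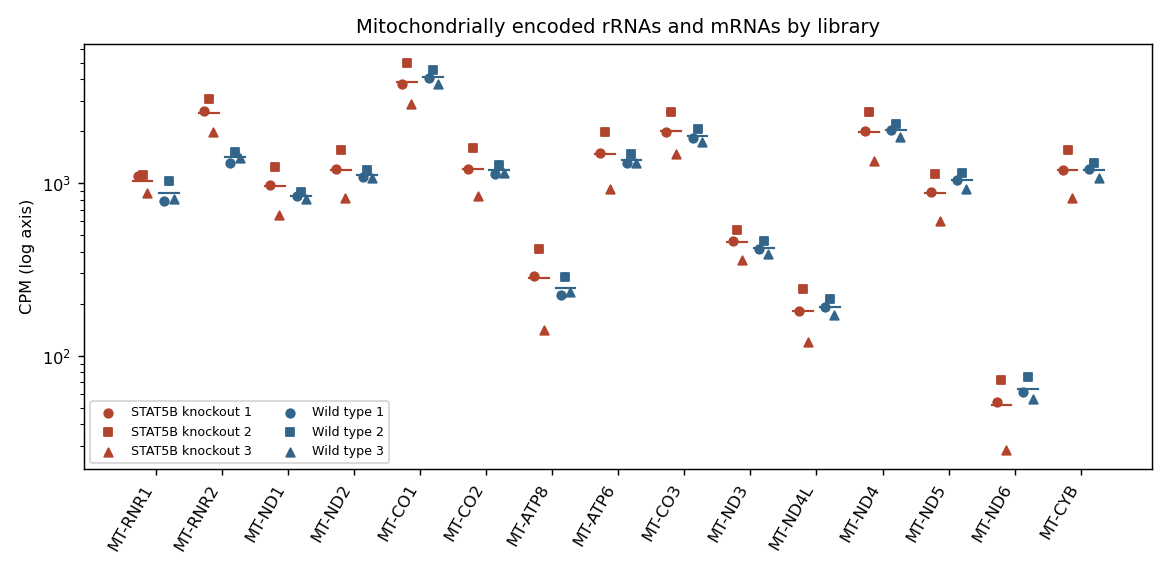
Level of the 2 rRNAs and 13 mRNAs in each library, in CPM on a log axis and in order along the mitochondrial genome. Points are libraries (shape gives the replicate number) and bars are group means. The knockout points of MT-RNR2, at 1967 to 3070 CPM, all sit above its wild-type points, while knockout replicate 3 is the lowest point of each of the 13 mRNAs.

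Set against mitochondrial mRNA, the large rRNA differed in every knockout library. It had 16.7, 15.0 and 17.9 counts per 100 counts of the 13 mRNAs in the knockout, against 8.51, 8.89 and 9.61 in the wild type. These groups lay far apart compared with their spread, at 16.5 ± 1.44 in the knockout and 9.0 ± 0.56 in the wild type (SD, n = 3 each). For the small rRNA the same ratio was 7.02, 5.46 and 7.92 in the knockout, against 5.08, 5.98 and 5.58 in the wild type, so the groups overlapped. There were 2.38, 2.75 and 2.26 counts of MT-RNR2 for each count of MT-RNR1 in the knockout, against 1.67, 1.49 and 1.72 in the wild type. This ratio was higher in every knockout library than in any wild-type library.

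Mature mitochondrial rRNA carries at most a few A at its end, and the libraries were made from total RNA with a kit for mRNA. Other RNAs without a poly(A) tail were counted beside it. RN7SL1 and RN7SL2, copies of the signal recognition particle RNA, together held 0.0328%, 0.0222% and 0.00507% of all counts in the knockout, against 0.00149%, 0.00111% and 0.00150% in the wild type. All 3 knockout libraries lay above the wild type, as for MT-RNR2. Within the knockout, replicate 3 had the lowest share of RN7SL RNA, the lowest MT-RNR2 level in CPM and the highest ratio of MT-RNR2 to mitochondrial mRNA. RN7SK, another RNA with no tail, had 27.6, 73.0 and 39.0 counts in the knockout, against 142, 220 and 0.01 in the wild type, where libraries thus differed widely. RMRP had 11, 19 and 8 counts in the knockout, against 13, 11 and 9 in the wild type. The others counted were low, with mean counts over all libraries from 0.64 (RNU2-2P) to 28.8 (SNORD3A). The part of RNA selection or RNA quality in the MT-RNR2 difference was not tested.

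**Figure D2:**
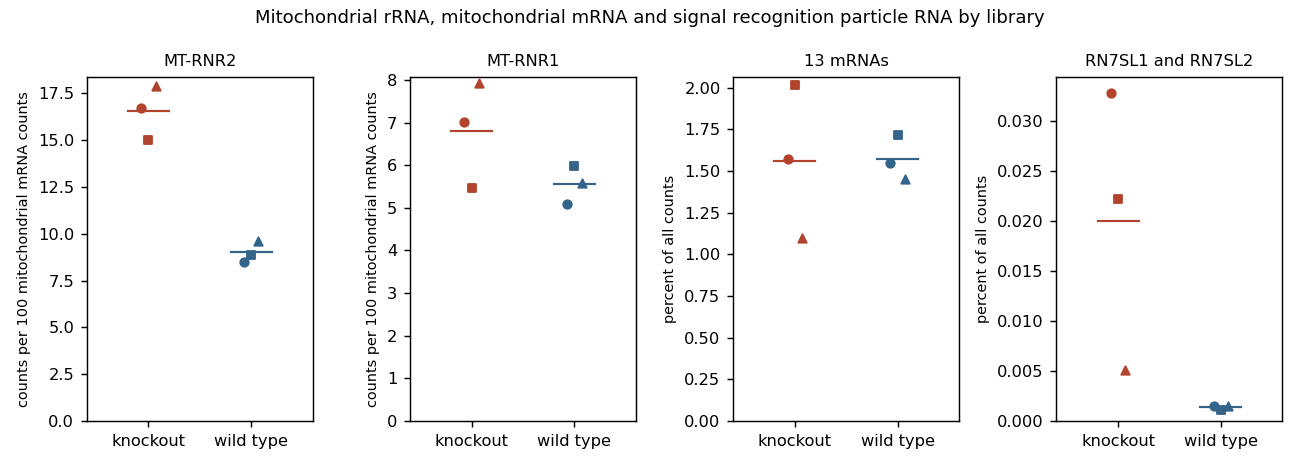
Counts of each rRNA per 100 mitochondrial mRNA counts, and the shares of all counts held by the 13 mRNAs and by RN7SL1 with RN7SL2. Points are libraries (circle, square and triangle for replicates 1, 2 and 3), bars are group means, and every axis starts at 0. MT-RNR2 is at 15.0 to 17.9 in the knockout and at 8.51 to 9.61 in the wild type, while the mRNA shares of the groups overlap.

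The 13 mRNAs as a pool made up 1.57%, 2.02% and 1.10% of all counts in the knockout, against 1.55%, 1.71% and 1.45% in the wild type. The means, 1.56 ± 0.46% in the knockout and 1.57 ± 0.13% in the wild type (SD, n = 3 each), were close, and the knockout libraries spread more widely. Of the 13 mRNAs in CPM, 13 were lowest in knockout replicate 3, and 11 were highest in knockout replicate 2. Coefficients of variation per mRNA were 19.4% to 48.7% in the knockout and 5.14% to 15.4% in the wild type. In whole-culture RNA, the number of mitochondria in the cells and the amount of RNA per mitochondrion cannot be told apart.

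On TPM, which scales counts by length and so allows genes to be compared, MT-ATP8 was highest, with 6486 ± 2602 TPM in the knockout and 6217 ± 535 TPM in the wild type. It ranked 3 among all genes in both groups. Its annotated length of 207 bases corresponds to an effective length of only 57.8 to 69.3 bases, so its TPM rests on a short stretch. It shares 46 of those 207 bases with MT-ATP6, so the TPM values of these genes do not come from separate stretches. MT-CO3 followed with 4778 ± 1151 and MT-ATP6 with 4195 ± 1357 TPM in the knockout, and these had 4714 ± 388 and 4147 ± 270 TPM in the wild type. MT-CO1 had 4069 ± 1005 TPM in the knockout and 4625 ± 430 TPM in the wild type. In the wild type MT-ATP6 lay below both others in every library, while in the knockout the order of MT-ATP6 and MT-CO1 differed between libraries. At the lower end MT-ND5 had 770 ± 216 TPM in the knockout and 975 ± 109 TPM in the wild type, and MT-ND6 had 213 ± 83.3 TPM in the knockout and 282 ± 39.9 TPM in the wild type (SD, n = 3 each). MT-ND6 was the lowest mRNA in each of the 6 libraries.

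None of the 13 mRNAs passed as higher and none as lower in the knockout. Also 0 had an unadjusted edgeR p under 0.05, and DESeq2 called 0 in either direction (9.99% and 10.2% of all genes as higher and lower), as did limma-voom (11.7% and 11.1%). The log2 fold changes were positive for 8 and negative for 5, with a median of 0.030 beside 0.0063 over all tested genes. The 95% interval was narrowest for MT-ND3, at −0.11 to 0.32, and widest for MT-ATP8, at −0.34 to 0.70. Leaving out a knockout library or the filter changed the calls. Without knockout replicate 3, where 11% of all genes passed as higher, 6 of the 13 did so (MT-ND1, MT-ND2, MT-ATP8, MT-ATP6, MT-CO3 and MT-ND3). Without knockout replicate 2, where 9.09% of all genes passed as lower, 3 did so (MT-CO1, MT-ND5 and MT-ND6). With no low-count filter, where 7.45% of all genes passed as higher and 6.75% as lower, the same 6 passed as higher and the same 3 as lower.

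**Figure D3:**
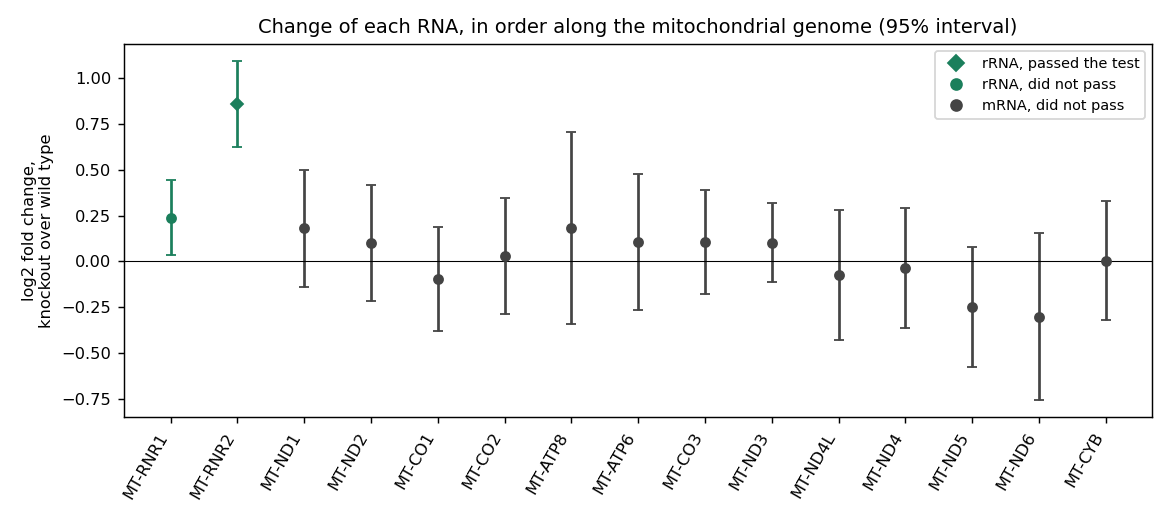
Log2 fold change of each rRNA and mRNA, knockout over wild type, with its 95% interval from the edgeR fit, in order along the mitochondrial genome. MT-RNR2 stands at 0.86 with an interval above 0, while the intervals of all 13 mRNAs include 0.

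Complex I has the most mitochondrially encoded subunits, and MT-ND5 and MT-ND6 had the lowest log2 fold changes of the 13 mRNAs. MT-ND1 (chrM:3307-4262), the first mRNA after the rRNAs, had 976, 1247 and 655 CPM in the knockout, against 844, 892 and 805 CPM in the wild type. MT-ND5 (chrM:12337-14148), near the end of the same transcript, had 887, 1132 and 601 CPM in the knockout, against 1045, 1150 and 919 CPM in the wild type. MT-ND6 (chrM:14149-14673, minus strand) had 53.8, 72.2 and 28.3 CPM in the knockout, against 61.3, 74.9 and 55.7 CPM in the wild type. All 3 overlapped between groups. Their log2 fold changes were 0.18 (SE 0.15, edgeR adjusted p = 0.420), −0.25 (SE 0.15, adjusted p = 0.269) and −0.30 (SE 0.21, adjusted p = 0.346). Leaving out single libraries moved MT-ND5 between −0.48 and −0.041 and MT-ND6 between −0.64 and −0.015, with the first value of each pair without knockout replicate 2 and the other without knockout replicate 3. The other complex I mRNAs, MT-ND2, MT-ND3, MT-ND4L and MT-ND4, had log2 fold changes of 0.10, 0.10, −0.075 and −0.036.

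Among the other complexes, no member moved beyond its spread. MT-CYB, the cytochrome b of complex III and the one subunit of that complex made in mitochondria, had 1193, 1562 and 824 CPM in the knockout, against 1200, 1304 and 1070 CPM in the wild type, with a log2 fold change of 0.0032. The oxidase subunit MT-CO1, the most counted mRNA, had 3755, 4948 and 2857 CPM in the knockout, against 4090, 4522 and 3743 CPM in the wild type. Knockout replicates 2 and 3 lay above and below all wild-type libraries here too, and the log2 fold change was −0.096. MT-CO2 and MT-CO3, which complete the core of complex IV, had 0.030 and 0.10. MT-ATP8 and MT-ATP6 had 0.18 and 0.10. MT-ATP8 varied most, with 289, 413 and 140 CPM in the knockout, against 224, 286 and 235 CPM in the wild type.

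The make-up of the mRNA pool was compared as well. As a share of the 13 mRNA counts, which cancels any change that all of them have in common, MT-ND1 took 6.22%, 6.11% and 5.96% in the knockout, against 5.46%, 5.22% and 5.56% in the wild type. MT-ND5 took 5.65%, 5.54% and 5.47% in the knockout, against 6.76%, 6.72% and 6.34% in the wild type. Neither share overlapped between groups, with MT-ND1 higher and MT-ND5 lower in every knockout library, while in CPM both overlapped. There were 1.10, 1.10 and 1.09 counts of MT-ND1 for each count of MT-ND5 in the knockout, against 0.807, 0.776 and 0.877 in the wild type. The 3 knockout values lay close together, at 1.10 ± 0.0063 in the knockout and 0.820 ± 0.051 in the wild type (SD, n = 3 each), while the CPM of both mRNAs differed widely between knockout replicates 2 and 3. The share of MT-CYB, which lies beyond MT-ND5 on the plus strand, overlapped between groups. It was 7.60%, 7.65% and 7.50% in the knockout, against 7.76%, 7.63% and 7.38% in the wild type.

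Of the remaining shares, MT-ND2 and MT-CO3 were higher in every knockout library than in any wild-type library, and MT-ND6 was lower. MT-ND2, a complex I subunit, took 7.72%, 7.62% and 7.48% in the knockout, against 7.02%, 6.996% and 7.38% in the wild type. MT-CO3 took 12.6%, 12.6% and 13.4% in the knockout, against 11.8%, 11.98% and 11.9% in the wild type. The MT-ND6 share, named for a test because it is the one mRNA of the minus strand, was 0.343%, 0.353% and 0.258% in the knockout, against 0.397%, 0.438% and 0.384% in the wild type. The means were 0.318 ± 0.052% in the knockout and 0.406 ± 0.028% in the wild type (SD, n = 3 each), and a two-sided exact permutation test gave p = 0.1, the smallest that 3 against 3 libraries allow. Against its neighbour the difference was not seen, with 6.07, 6.38 and 4.72 counts of MT-ND6 per 100 counts of MT-ND5 in the knockout and 5.87, 6.51 and 6.06 in the wild type. Whether reads of plus-strand RNA entered the MT-ND6 counts is not known. The other 8 shares overlapped between groups, so 5 of 13 did not, and there is no value over all genes for this measure. In CPM, a different measure, the groups overlapped for all 13 mRNAs. They did not overlap in CPM for 38.6% of all tested genes. Since shares add to a fixed total, a higher share of one mRNA lowers the rest. The shares other than that of MT-ND6 were examined after their values were seen and were not tested.

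**Figure D4:**
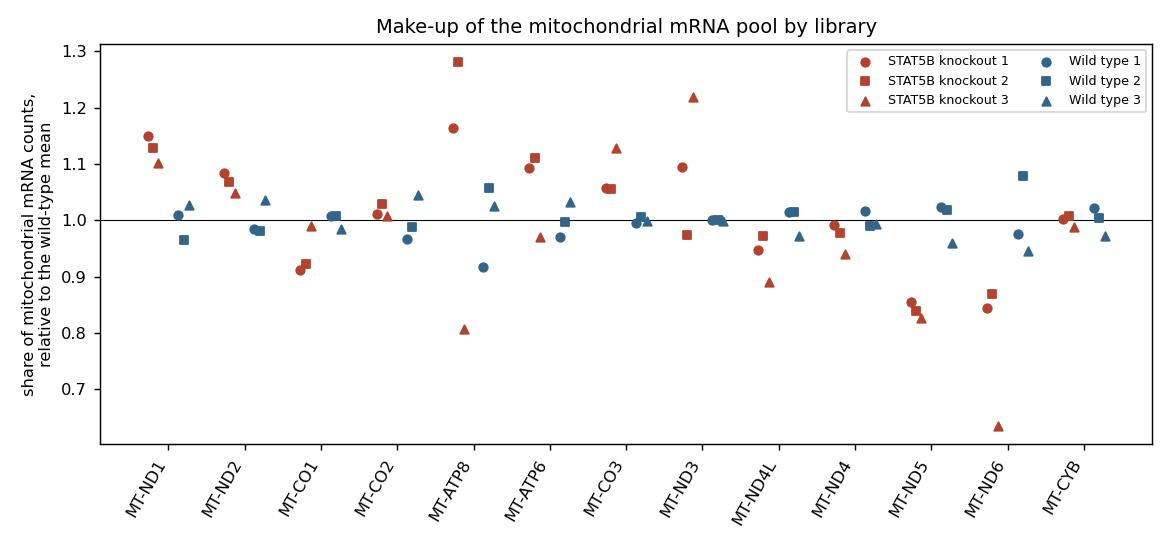
Share of each mRNA in the counts of the 13 mRNAs, divided by its wild-type mean, by library and in order along the mitochondrial genome (shape gives the replicate number). The MT-ND1, MT-ND2 and MT-CO3 shares lie above the wild type in all 3 knockout libraries, and those of MT-ND5 and MT-ND6 below it.

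The 6 mRNAs with a partial stop codon had log2 fold changes from −0.036 to 0.18, and the 7 with a complete one from −0.30 to 0.18. The longest run of A was 8 bases in MT-ND5, 7 in MT-RNR2, MT-ND2, MT-CO1 and MT-ND4, and 6 or fewer in MT-RNR1 and the other mRNAs. GC content was 39.6% in MT-ATP8, the lowest, and 47.7% in MT-ND1, the highest. MT-ND6 had 19.6% A, against 26.8% to 38.6% in the other mRNAs. The labels do not say how reads in the shared bases of MT-ATP8 and MT-ATP6, shown above, were divided between them. MT-ATP8 had a count with a fraction in 1 of the 6 libraries, and MT-ATP6 in all 6. There were 19.3, 20.9 and 15.1 counts of MT-ATP8 per 100 of MT-ATP6 in the knockout, against 17.2, 19.3 and 18.0 in the wild type. MT-ND4L had 9.0, 9.38 and 8.93 counts per 100 of MT-ND4 in the knockout, against 9.40, 9.65 and 9.22 in the wild type. The labels do not say whether strand was used to assign reads. Counts of MT-ND6, on the minus strand, may therefore include reads of plus-strand RNA over the same bases. Reads across the border of MT-ND5 and MT-ND6 cannot be assigned with certainty.

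Nuclear copies of mitochondrial sequence did not pass the test. Of 417 annotated copies, 55 had a count and 7 were tested, and 0 passed in either direction with edgeR, DESeq2 or limma-voom, with 0 at an unadjusted edgeR p under 0.05. MTATP6P1 was the most abundant, with 2268, 3547 and 1675 counts in the knockout, against 2496, 2807 and 2701 in the wild type, the same order of libraries as MT-ATP6 within the knockout. Its call as lower without knockout replicate 2 (log2 fold change −0.32, edgeR adjusted p = 0.0253) was the one exception among the alternatives. MTND2P28, MTCO1P12, MTND4P12 and MTCO2P12 had mean counts of 528, 508, 90.1 and 30.9 over the 6 libraries. All copies together had 1.24, 1.22 and 1.28 counts per 100 mitochondrial mRNA counts in the knockout, against 1.31, 1.31 and 1.36 in the wild type. Windows of 50 bases found letter for letter in the transcript of another gene made up 49.5% of MT-CO1, 46.7% of MT-ATP6 and 43.6% of MT-ND2, but 0% of MT-RNR1, MT-ND3 and MT-ND4L. The last 3, and MT-CYB with 1.19%, had whole counts in all 6 libraries within 0.005. MT-CO1, MT-ATP6 and MT-ND2 had counts with fractions in all 6. For MT-RNR2 the share was 14.0%, most of it in MTRNR2L12 on chromosome 3, which had 14.2, 20.2 and 6.07 counts in the knockout, against 9.04, 7.09 and 9.05 in the wild type. MT-RNR2 itself had a mean count of 37526 over the 6 libraries.

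The tRNAs were almost absent. Of 22 genes 9 had any count, the highest count in a library was 3, and the sums were 10 counts over the knockout libraries and 10 over the wild-type libraries. Their lengths of 59 to 75 bases had effective lengths of 7.91 to 12.2 bases. With so few counts, differences in tRNA level were not detectable. The part of length, depth or RNA selection in these low counts was not tested.

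A list of nuclear genes that serve mitochondrial RNA held calls in both directions, beside calls in both directions over all genes. Its 46 tested genes act in mitochondrial transcription, RNA processing, RNA stability and DNA upkeep, or are nuclear factors such as NRF1, GABPA and PPARGC1A that act on genes for mitochondria. Of these 46, 4 passed as higher (8.70%, beside 12.1% of all genes) and 8 as lower (17.4%, beside 11.4% of all genes), with a median log2 fold change of −0.0079. HSD17B10, a subunit of the RNase P that cuts tRNAs out of the primary transcript, had 167, 173 and 177 CPM in the knockout, against 104, 98.4 and 104 CPM in the wild type. Its log2 fold change was 0.76 (SE 0.037, edgeR adjusted p = 2.27e-08). TRMT10C, its partner in that enzyme, had 102 ± 2.50 CPM in the knockout and 90.6 ± 0.55 CPM in the wild type, a log2 fold change of 0.18 (edgeR adjusted p = 0.00319) that did not pass with effective-length offsets (adjusted p = 0.125) or on log2(TPM + 1) (0.325). PRORP, the catalytic subunit, named after its value was seen, had a log2 fold change of −0.081 (edgeR adjusted p = 0.541).

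TFAM, which packs mitochondrial DNA and starts its transcription, fell. It had 130, 146 and 140 CPM in the knockout, against 174, 174 and 176 CPM in the wild type, a log2 fold change of −0.33 (SE 0.040, edgeR adjusted p = 5.91e-05). The nuclear coactivators PPARGC1B and PPRC1, which act on genes for mitochondria, also fell, with log2 fold changes of −0.34 and −0.18 (edgeR adjusted p = 3.35e-04 and 0.00164). PPRC1 was at −0.33 on log2(TPM + 1) and at −0.27 with effective-length offsets, and passed in both. PPARGC1A, also on the list, lay the other way at 0.49 but did not pass (edgeR adjusted p = 0.0838), and its groups overlapped. Of the other nuclear factors, NRF1 was at 0.14, ESRRA at −0.18 and GABPA at −0.14. Their edgeR adjusted p were 0.0846, 0.0537 and 0.0197, so only GABPA passed, as lower. PPARGC1A, NRF1, ESRRA and GABPA were given values here after these were seen. TFB2M, the other initiation factor, passed as higher at 0.19 (edgeR adjusted p = 0.0438), but this call ended in 14 of 19 alternatives, among them DESeq2 (adjusted p = 0.175). The polymerase POLRMT, the elongation factor TEFM, and LRPPRC and SLIRP, which together stabilise mitochondrial mRNAs, did not pass. Their log2 fold changes were −0.0052, 0.031, −0.056 and −0.068, with edgeR adjusted p of 0.959, 0.847, 0.244 and 0.506. Without knockout replicate 3, LRPPRC passed as lower at −0.086 (adjusted p = 0.0478).

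Nuclear genes encode the other subunits of the same complexes. Of 73 tested nuclear subunits of complexes I, III, IV and V, 31 passed as higher (42.5%, beside 12.1% of all genes) and 0 as lower, with 2 lower at an unadjusted edgeR p under 0.05 and 0 lower in DESeq2 and limma-voom. By complex the nuclear counts were 13 of 38 for complex I, 4 of 9 for complex III, 8 of 11 for complex IV and 6 of 15 for complex V. The median log2 fold change was 0.11, 0.14, 0.21 and 0.085 for the nuclear subunits of these complexes, beside −0.036, 0.0032, 0.030 and 0.14 for the mitochondrial ones. COX7B, a small subunit of complex IV, had 115 ± 3.49 CPM in the knockout and 82.5 ± 2.95 CPM in the wild type (SD, n = 3 each). ATP5MF and ATP5PB of complex V had log2 fold changes of 0.41 and 0.33, NDUFS5 of complex I had 0.39, and NDUFA4, listed with complex I by its symbol but now placed in complex IV, had 0.36, with a highest edgeR adjusted p of 6.81e-05 among them. On log2(TPM + 1), where 3.06% of all genes passed as higher, 13 nuclear subunits did so. With effective-length offsets 21 did so, beside 5.58% of all genes, and with DESeq2 24 did so, beside 9.99% of all genes. With no low-count filter, where 7.45% of all genes passed as higher, 35 of the 73 nuclear subunits and 6 of the 13 mitochondrial ones did so. In that fit 3 of the mitochondrial ones passed as lower, beside 6.75% of all genes. With no filter and edgeR's bias-adjusted quasi-likelihood, a setting chosen after seeing the data, 0 mitochondrial ones passed in either direction. Without knockout replicate 3, where 11% of all genes passed as higher, 32 nuclear and 6 mitochondrial subunits did so. The difference between nuclear and mitochondrial subunits was not tested, and the spread of the mitochondrial ones across knockout libraries was larger.

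**Figure D5:**
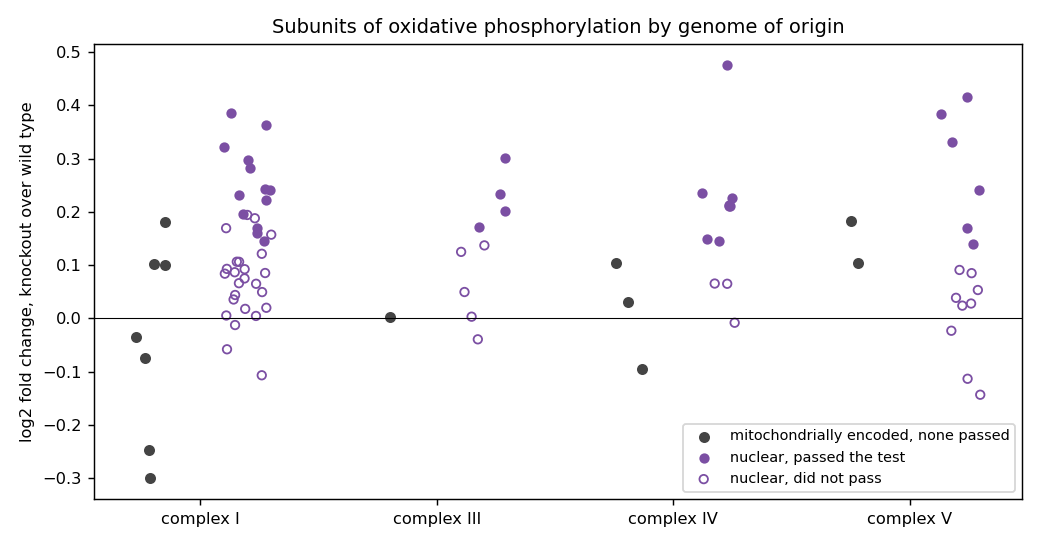
Log2 fold change, knockout over wild type, of mitochondrially encoded and nuclear subunits by complex. Each point is a gene, and filled purple points passed the test. Filled purple points number 31, all above 0, while none of the 13 mitochondrial points passed.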

How the data were processed

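Each library had 1 deposited table of genes that, per the file headers, holds lengths, effective lengths, TPM and estimated numbers of reads. The build hg38 and the tools FastQC, fastp, DRAGEN and Picard are listed, per the submitters' processing notes, without their roles. No source used here gives the annotation release or the way reads were assigned. The TPM values deposited by the authors sum to 1000000 per library. The deposited estimated counts were rounded to whole numbers. Groups came from the genotype label.

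Symbols came from a table of gene names, and those of MTRNR2L genes, positions (GRCh38) and sequences from GENCODE 29. Counts were tested with edgeR 4.0.16 in R 4.3.3 (filterByExpr with minimum count 10 and total 15, TMM scaling, quasi-likelihood F test at its default settings, Benjamini-Hochberg over 15958 genes, threshold 0.05), and CPM use the TMM-scaled library sizes. The SE is the size of the log2 fold change over the square root of F, and intervals are 95%. The procedure was tested on simulated data. Replicates differed by more than sampling noise (chi-square per degree of freedom 2.45 to 7.50), so none was a copy. Alternatives included DESeq2 1.42.0, limma 3.58.1, other scalings, filters and offsets, leaving out each library, blocking on the replicate number, and log2(TPM + 1) or log2(TPM + 0.1).

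The 2 rRNAs, the 13 mRNAs, 6 preset nuclear genes, the 5 called members with the smallest p of each other list and the 5 most abundant copies are named. Members and lists were chosen with earlier results of these data known. The study groups share replicate numbers, and no label says what a number marks.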

Additional observations from a re-analysis of the deposited data

How the results depend on the processing

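The call of MT-RNR2 held in every alternative run. For the 13 mRNAs, 0 passed as higher and 0 as lower, but with no low-count filter 6 did so as higher and 3 as lower. That filter choice did not call any of them when edgeR's bias-adjusted quasi-likelihood, a setting chosen after seeing the data, was used with it, and the cause was not tested. With the replicate block, where 11.1% of all genes passed as lower, 2 passed as lower, MT-ND5 (edgeR adjusted p = 0.0130) and MT-ND6 (0.0424). Of the 2 rRNAs, 2 passed as higher with the replicate block (11.8% of all genes as higher) and with no low-count filter (7.45%). With the bias-adjusted version and no low-count filter, where 6.1% of all genes passed as higher, 2 also did so. Same-numbered libraries deviated together with correlations of −0.020, 0.12 and 0.035, so the numbers were not taken to pair them. Leaving out single libraries gave 0 to 6 higher and 0 to 3 lower mRNAs and 1 to 2 higher rRNAs.

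On log2(TPM + 1) and log2(TPM + 0.1), 3.06% and 3.03% of all genes passed as higher. Leaving out libraries, 8.19% to 11% of all genes passed as higher and 7.83% to 10.9% as lower. For genes of mitochondrial expression, counts were 1 higher on each TPM scale and 3 lower with effective-length offsets, beside 5.29% of all genes. Leaving out libraries gave 3 to 4 higher and 4 to 7 lower (5 lower without knockout replicate 1 and 4 without wild-type replicate 2). For nuclear subunits the counts were 13 higher on both TPM scales and 23 to 32 when leaving out libraries. One subunit was lower (1 gene) with RLE scaling, library totals alone, scaling on nuclear genes, the stricter filter and both TPM scales. In these settings 7.11% to 12.7% of all genes passed as lower. Leaving out libraries, 0 to 1 subunits were lower. For nuclear copies the count was 0 to 1 lower.

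Signs turned only for values that did not pass in the main test. On log2(TPM + 1) and log2(TPM + 0.1), MT-ND2 was −0.029, MT-CO2 −0.092, MT-ATP8 −0.023, MT-ATP6 −0.036, MT-CO3 −0.0056, MT-CYB −0.12 and POLRMT 0.018, while the median of all genes was −0.059 and −0.067. MT-CO2 and MT-CYB were −0.0073 and −0.031 with limma-voom and −0.014 and −0.039 with the replicate block. MT-CYB was −0.0024 with RLE scaling, −0.0076 with library totals alone, −0.00058 with scaling on nuclear genes, −0.0025 with DESeq2 and −0.011 with effective-length offsets, where POLRMT was 0.087. Leaving out libraries gave log2 fold changes of −0.055 to 0.39 for MT-ND1, −0.14 to 0.31 for MT-ND2, −0.32 to 0.078 for MT-CO1, −0.22 to 0.23 for MT-CO2, −0.21 to 0.50 for MT-ATP8, −0.17 to 0.35 for MT-ATP6, −0.11 to 0.28 for MT-CO3, −0.037 to 0.24 for MT-ND3, −0.35 to 0.15 for MT-ND4L, −0.28 to 0.18 for MT-ND4 and −0.24 to 0.21 for MT-CYB. The same ranges were −0.054 to 0.046 for POLRMT, −0.031 to 0.087 for TEFM, −0.32 to 0.095 for MTATP6P1, −0.31 to 0.044 for MTND2P28, −0.30 to 0.11 for MTCO1P12, −0.28 to 0.14 for MTND4P12 and −0.46 to 0.084 for MTCO2P12. The MT-ND6 share kept its direction in all 8 alternatives, from −0.17 to −0.058 percentage points.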
